A study of Mus musculus with 12 samples.

Results

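The adaptors that switch β2 integrins from the inactive to the ligand-binding state were examined as a group of 9 genes, chosen by name: the small GTPases Rap1a and Rap1b, the exchange factor Rasgrp2, the RAP1 effector Apbb1ip, talin (Tln1), kindlin-3 (Fermt3), the scaffold proteins Skap2 and Fyb, and cytohesin-1 (Cyth1). All 9 were among the 41709 genes of the deposited count tables, and all 9 passed the filter on low counts. The libraries came from bone marrow-derived dendritic cells (BMDCs) of mice, grown with GM-CSF for 10 days and enriched for MHCII+ cells with magnetic beads. Every mouse carried the floxed CD18 (Itgb2) allele on both chromosomes. CD18fl/fl mice had no Cre, whereas CD18ΔCD11c mice also expressed Cre recombinase from the CD11c promoter, which removes exon 3 of CD18 only in cells in which that promoter has been active. BMDCs of each genotype were left unstimulated or received LPS, a bacterial cell wall component that is sensed by TLR4, at 100 ng/mL for 24 h. The methods text gives the LPS exposure only as overnight. Each of the 4 groups had 3 libraries. Neither the age of the mice nor whether the replicates came from separate mice is stated in the labels. The p-values therefore measure the spread between these libraries, which may be technical. In fits that compare libraries of the same replicate number, they measure only the spread of those differences, which may also be technical.

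Integrins of leukocytes rest in a bent form that binds ligand weakly. Chemokine and antigen receptors raise calcium and diacylglycerol, exchange factors such as RASGRP2 load RAP1 with GTP, and RAP1-GTP brings talin to the cytoplasmic tail of CD18, partly through RIAM (Apbb1ip). Talin and kindlin-3 then bind neighboring sites on that tail and open the integrin. SKAP2 and FYB (ADAP) hold RIAM and RAP1 at the membrane, and cytohesin-1 binds the CD18 tail directly. Loss of kindlin-3 in humans and mice leaves β2 integrins on the cell surface but inactive, which is known as leukocyte adhesion deficiency type III.

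Rap1a and Rap1b encode near-identical proteins, so their coding sequences are shown first to let the reader judge whether reads could be told apart. In GENCODE transcripts on GRCm39, each coding sequence has 555 bases, of which 102 differ (81.6% identity). The stretch from base 29 to base 148 is printed 5′ to 3′ because it holds the longest identical run (20 bases, 79 to 98), and capitals mark the 18 differences within it.
Rap1a: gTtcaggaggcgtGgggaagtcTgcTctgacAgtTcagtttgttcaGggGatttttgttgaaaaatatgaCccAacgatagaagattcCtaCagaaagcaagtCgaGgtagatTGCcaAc
Rap1b: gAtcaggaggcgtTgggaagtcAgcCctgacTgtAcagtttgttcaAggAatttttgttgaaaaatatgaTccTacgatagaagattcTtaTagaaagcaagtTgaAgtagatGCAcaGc
Of the 497 windows of 59 bases, the read length given by the labels, 0 were identical between both genes, and the most alike window still held 4 differences. Of all reads counted on Rap1a, 99.96% mapped to a single position, and the share was 100.0% for Rap1b.

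The promoters of Rap1a, Rap1b and Skap2 are shown because these 3 genes were the ones that were higher in CD18ΔCD11c BMDCs in both states. Each sequence covers the 250 bases upstream of the GENCODE canonical transcript on GRCm39, 5′ to 3′ on the strand of the gene, which is the minus strand for all 3. Capitals mark GC boxes (GGGCGG on either strand), the binding motif of SP family factors.
Rap1a, chr3:105708705-105708954: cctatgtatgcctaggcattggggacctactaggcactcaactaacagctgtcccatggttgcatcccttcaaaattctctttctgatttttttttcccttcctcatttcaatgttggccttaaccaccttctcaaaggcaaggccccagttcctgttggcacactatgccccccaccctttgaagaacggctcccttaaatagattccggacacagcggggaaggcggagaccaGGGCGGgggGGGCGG
Rap1b, chr10:117681972-117682221: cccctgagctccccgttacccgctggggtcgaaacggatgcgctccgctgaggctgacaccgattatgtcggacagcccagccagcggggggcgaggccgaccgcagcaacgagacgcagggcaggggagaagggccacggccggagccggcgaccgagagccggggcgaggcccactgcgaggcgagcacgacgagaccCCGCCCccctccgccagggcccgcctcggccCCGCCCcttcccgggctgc
Skap2, chr6:51989676-51989925: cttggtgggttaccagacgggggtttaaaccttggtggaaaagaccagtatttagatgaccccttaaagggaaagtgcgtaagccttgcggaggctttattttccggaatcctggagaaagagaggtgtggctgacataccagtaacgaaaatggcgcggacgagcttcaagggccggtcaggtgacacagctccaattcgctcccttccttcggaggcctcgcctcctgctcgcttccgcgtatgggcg
Rap1a and Rap1b each held 2 GC boxes, and Skap2 held 0. Over the 9 genes, 5 promoters held at least 1 GC box (Tln1, Rap1a, Rap1b, Cyth1 and Rasgrp2), compared with 36.3% of 21770 promoters of the same length. The PU.1 motif GAGGAAGT (2.08% of all promoters, both strands) and the NF-κB consensus (0.423%, both strands) were found in 0 of the 9. A match to these letters is a description of the window and says nothing of binding.

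Total gene reads per library lay between 29689149 and 34037178. Levels are given as CPM, the usual read count scaled to library size, after TMM normalization, and 3 reads, taken as the floor, were equal to 0.0832 CPM on this scale in the first unstimulated CD18fl/fl library. Libraries of replicate 3 stood apart from those of replicates 1 and 2 in every group. Deviations from the group means correlated between libraries of the same number (r from 0.265 to 0.716 over 13752 genes). Other pairs had a mean r from -0.235 to -0.182. Centering on the group means pushes that mean below 0 when same-number pairs correlate, so it is no separate evidence of pairing. With replicate 3 apart in every group, centering also makes replicates 1 and 2 correlate, whichever way these are numbered. Their r therefore does not show which of them belong together. Each comparison was fitted on the 6 libraries as they are, which was the main test. It was fitted again with a block for replicate number, which compares libraries of the same number. The 9 dendritic cell markers, among them H2-Ab1 and Itgax, summed to between 13420 and 35090 CPM per library, and all were detected in each group. The largest parts were the MHC class II pathway genes H2-Ab1, H2-Aa and Cd74 (means of 5855, 4752 and 5046 CPM in unstimulated CD18fl/fl BMDCs). As the cells were selected for MHCII, this sum is no measure of purity. In the same group, Ccr7 and Cd83 averaged 1591 and 566.5 CPM, and Itgax, Flt3 and Zbtb46 279, 21.4 and 22.9 CPM. Markers of other cells were also present. The macrophage list summed to between 437 and 2122 CPM, and the neutrophil list ranged from 8.90 to 1326 CPM. The lists for platelets and megakaryocytes (17.8 to 157 CPM), mast cells and basophils (8.29 to 165 CPM), B cells (0.636 to 138 CPM) and T and NK cells (2.75 to 31.0 CPM) were low. In such bulk libraries, fewer cells of a type and less RNA per cell cannot be told apart.

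The targeted gene, Itgb2, was read at 382, 420.0 and 379 CPM in unstimulated CD18fl/fl BMDCs and at 120.4, 163 and 189 CPM in unstimulated CD18ΔCD11c BMDCs (replicates 1, 2 and 3, the order used throughout). After LPS, it stood at 167, 171 and 266 CPM in CD18fl/fl and at 114, 89.7 and 119 CPM in CD18ΔCD11c BMDCs. The genotypes did not overlap in either state. With the block, Itgb2 was 2.44-fold lower in unstimulated (edgeR adjusted p = 0.00392) and 1.88-fold lower in LPS-treated CD18ΔCD11c BMDCs (edgeR adjusted p = 0.0201). Counts cover the whole gene, so transcripts that lack exon 3 are still counted.

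In unstimulated BMDCs, Rap1a, Rap1b and Skap2 were 1.80- to 1.94-fold higher in CD18ΔCD11c than in CD18fl/fl libraries, and Fyb, Tln1 and Apbb1ip were lower, when libraries of the same replicate number were compared. With this block, edgeR's quasi-likelihood test with Benjamini-Hochberg adjustment called 6 of the 9 adaptors, against 20.2% of the 12876 genes tested. The 3 higher members stood against 12.1% and the 3 lower ones against 8.16% of all genes. Without the block, 0 of 9 passed, as did 0% of all genes. In that fit, 4 members (Rap1a, Rap1b, Apbb1ip and Fyb) and 2159 genes in all had an unadjusted p under 0.05, and DESeq2 called Rap1a and Rap1b among 491 higher and 47 lower genes. With the block, the median log2 difference of the 9 was -0.09, and that of all genes was -0.07. In 4 members the genotypes did not overlap (Rap1a and Rap1b higher, Fermt3 and Apbb1ip lower), against 24.8% of all genes (11.7% higher, 13.1% lower).

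In LPS-treated BMDCs, the same 3 genes were higher in CD18ΔCD11c libraries, and Apbb1ip and Fermt3 were lower. These 5 of 9 passed edgeR's test with the block, against 10.1% of 12441 genes (6.98% higher, 3.16% lower). Without the block, 0 of 9 adaptors and 0% of all genes passed. There, 3 members and 1212 genes in all had an unadjusted p under 0.05, and DESeq2 called 0 members but 141 higher and 9 lower genes. The median log2 difference of the members with the block was -0.1, and that of all genes was -0.09. Only Rap1b (higher) and Apbb1ip (lower) did not overlap between the genotypes, against 17.6% of all genes (9.51% higher, 8.1% lower). The number of calls depended on which replicates entered. With a replicate number left out, the block leaves 1 residual degree of freedom per gene. Such p-values, here and below, rest mostly on the spread pooled over all genes. With both libraries of replicate 2 left out, Fyb was the only member called in either state, against 3.48% of all genes in unstimulated and 1.77% in LPS-treated BMDCs. Without those of replicate 1, 4 members passed in unstimulated (7.71% of all genes) and 0 in LPS-treated BMDCs (0.0234%). Without those of replicate 3, 6 (26.7%) and 4 (11.3%) passed.

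**Figure D1:**
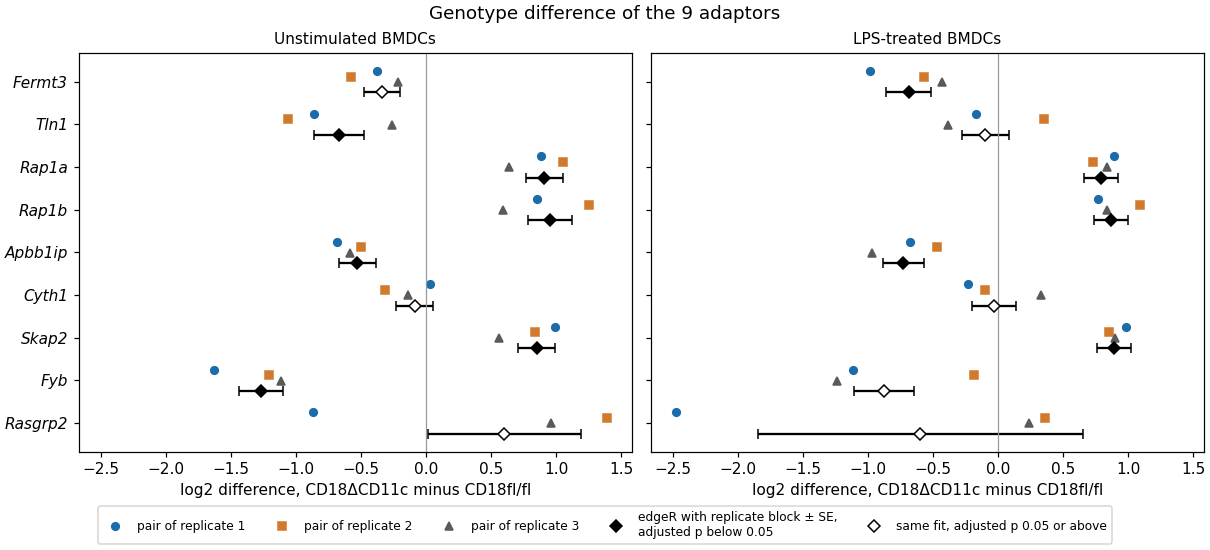
Log2 difference between CD18ΔCD11c and CD18fl/fl BMDCs for each adaptor, in unstimulated (left) and LPS-treated (right) cells. Colored symbols are the 3 pairs of libraries of the same replicate number, and diamonds with bars are the edgeR estimate with the replicate block ± SE, filled where the adjusted p was below 0.05. Rap1a, Rap1b and Skap2 lie to the right of 0 in all 3 pairs of both states, and Apbb1ip, Fyb and Fermt3 lie to the left.

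Rap1b (ENSMUSG00000052681, GRCm39 chr10:117649776-117681940, minus strand) encodes the RAP1 protein that predominates in platelets. It was read at 667, 542 and 553 CPM in unstimulated CD18fl/fl BMDCs and at 1206, 1286 and 834 CPM in unstimulated CD18ΔCD11c BMDCs. After LPS, the values were 751, 768 and 545 CPM in CD18fl/fl and 1281, 1634 and 977 CPM in CD18ΔCD11c libraries. The lowest CD18ΔCD11c library was above the highest CD18fl/fl library in each state. With the block, Rap1b was 1.94-fold higher in unstimulated cells (log2 0.95 ± 0.17 SE, edgeR adjusted p = 0.00925) and 1.83-fold higher in LPS-treated cells (log2 0.87 ± 0.13 SE, edgeR adjusted p = 0.0127). With 1 replicate number left out at a time, the edgeR adjusted p ranged from 0.00284 to 0.0802 in unstimulated and from 0.0092 to 0.0828 in LPS-treated cells.

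Rap1a (ENSMUSG00000068798, chr3:105634583-105708652, minus strand), the second RAP1 gene, showed the same order. Unstimulated CD18fl/fl libraries held 196.5, 175 and 193 CPM, and unstimulated CD18ΔCD11c libraries 361, 363 and 301 CPM. After LPS, the values were 179.8, 222 and 121 CPM against 332, 367 and 217 CPM. The unstimulated groups were separate, while after LPS the CD18ΔCD11c library of replicate 3 fell just below the CD18fl/fl library of replicate 2. The difference with the block was 1.88-fold in unstimulated (log2 0.91 ± 0.14 SE, edgeR adjusted p = 0.00634) and 1.73-fold in LPS-treated cells (log2 0.79 ± 0.13 SE, edgeR adjusted p = 0.0165). Leaving out a replicate number gave edgeR adjusted p values between 0.00286 and 0.0576 and between 0.0188 and 0.139, respectively.

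Skap2 (ENSMUSG00000059182, chr6:51834402-51989529, minus strand) encodes a scaffold that links RIAM and the adaptor FYB to the cytoskeleton in myeloid cells. Its level was 297, 235 and 148 CPM in unstimulated CD18fl/fl and 589.6, 420.1 and 218 CPM in unstimulated CD18ΔCD11c libraries. LPS-treated libraries held 322, 295.5 and 122.5 CPM in CD18fl/fl and 636, 534 and 229 CPM in CD18ΔCD11c BMDCs. Replicate 3 was the lowest in all 4 groups, and the genotypes overlapped, while CD18ΔCD11c was higher in 3 of 3 pairs in each state. With the block, the difference was 1.80-fold in unstimulated (log2 0.85 ± 0.14 SE, edgeR adjusted p = 0.00787) and 1.85-fold in LPS-treated cells (log2 0.89 ± 0.13 SE, edgeR adjusted p = 0.011). With a replicate number left out, the edgeR adjusted p lay between 0.00329 and 0.0653 in unstimulated and between 0.00983 and 0.111 in LPS-treated cells. Rap1a, Rap1b and Skap2 remained higher and past the threshold in both states with an offset for gene length and with scaling to library size only, each with the block, and the latter moved the median log2 difference of all genes by -0.39 in unstimulated and by -0.25 in LPS-treated cells.

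Fyb (ENSMUSG00000022148, chr15:6552334-6692794, plus strand), also known as ADAP, binds SKAP proteins and, unlike Skap2, was lower in unstimulated CD18ΔCD11c BMDCs. Unstimulated CD18fl/fl libraries held 51.1, 57.4 and 21.6 CPM, and CD18ΔCD11c libraries held 16.5, 24.8 and 9.91 CPM. After LPS, 76.5, 64.4 and 54.1 CPM were counted in CD18fl/fl and 35.1, 56.6 and 22.8 CPM in CD18ΔCD11c BMDCs. The genotypes overlapped, at the low CD18fl/fl library of replicate 3 in unstimulated cells and at the high CD18ΔCD11c library of replicate 2 after LPS. Within pairs, the CD18ΔCD11c library was lower in 3 of 3 in each state. The difference in unstimulated cells was 2.41-fold with the block (log2 -1.27 ± 0.17 SE, edgeR adjusted p = 0.00401) and held with each replicate number left out (edgeR adjusted p from 0.00227 to 0.0372). After LPS, the log2 difference was -0.88 ± 0.23 (SE), and the edgeR adjusted p of 0.0532 missed the threshold, whereas DESeq2 with the block gave an adjusted p of 0.00337. Of the reads on Fyb, 97.3% mapped to a single position, the lowest share among the 9 genes.

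Apbb1ip (ENSMUSG00000026786, chr2:22664106-22765665, plus strand), which encodes the RAP1 effector RIAM, was lower in CD18ΔCD11c BMDCs in both states. The unstimulated libraries held 59.6, 61.6 and 71.7 CPM in CD18fl/fl and 37.0, 43.6 and 47.7 CPM in CD18ΔCD11c BMDCs. With LPS, the values were 42.9, 50.2 and 79.0 CPM against 26.8, 36.3 and 40.4 CPM. The genotypes did not overlap in either state. With the block, Apbb1ip was 1.45-fold lower in unstimulated (log2 -0.53 ± 0.14 SE, edgeR adjusted p = 0.0341) and 1.66-fold lower in LPS-treated cells (log2 -0.73 ± 0.16 SE, edgeR adjusted p = 0.0334). The call in LPS-treated cells was lost with an offset for gene length (edgeR adjusted p = 0.0537) and with any replicate number left out (0.0742 to 0.196), and that in unstimulated cells was lost without replicate 1 (0.238) or 2 (0.114).

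Tln1 (ENSMUSG00000028465, chr4:43531519-43562691, minus strand) encodes talin-1, the large protein whose head domain engages the CD18 tail. It was counted at 135, 167 and 196 CPM in unstimulated CD18fl/fl and at 74.8, 80.0 and 164 CPM in unstimulated CD18ΔCD11c libraries. After LPS, CD18fl/fl libraries held 46.3, 43.8 and 177 CPM and CD18ΔCD11c libraries 41.3, 55.9 and 135 CPM. Replicate 3 was the highest library of every group, and the genotypes overlapped in both states. In unstimulated cells, Tln1 was 1.59-fold lower with the block (log2 -0.67 ± 0.19 SE, edgeR adjusted p = 0.0409), a call that ended with the offset for gene length (log2 -0.34, edgeR adjusted p = 0.211) and without replicate 1 (0.172) or 2 (0.209). Its exon length of 8473 bases is the longest of the 9 genes. After LPS, the difference was -0.1 ± 0.18 (log2, SE; edgeR adjusted p = 0.778) and took both signs among the pairs.

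Fermt3 (ENSMUSG00000024965, chr19:6976326-6996837, minus strand) encodes kindlin-3, the kindlin of blood cells. Its level was 132, 125.5 and 142 CPM in unstimulated CD18fl/fl and 102, 84.1 and 122 CPM in unstimulated CD18ΔCD11c BMDCs, and these groups did not overlap. With LPS, CD18fl/fl libraries held 91.2, 78.4 and 111 CPM and CD18ΔCD11c libraries 46.0, 52.6 and 82.5 CPM. The CD18ΔCD11c library was the lower one in 3 of 3 pairs of each state. With the block, the difference was 1.61-fold after LPS (log2 -0.69 ± 0.17 SE, edgeR adjusted p = 0.0455) and -0.34 ± 0.14 (log2, SE) without LPS, where the edgeR adjusted p was 0.133 (0.0126 with scaling to library size only). The former call was lost with the length offset (edgeR adjusted p = 0.0823) and without replicate 1 (0.29) or 2 (0.131).

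Cyth1 (ENSMUSG00000017132, chr11:118022845-118139418, minus strand), an exchange factor for ARF GTPases, did not pass the test between the genotypes. Unstimulated libraries held 88.2, 92.8 and 64.4 CPM in CD18fl/fl and 89.9, 74.5 and 58.3 CPM in CD18ΔCD11c BMDCs. After LPS, the values were 161, 160.1 and 76.0 CPM and 137, 149 and 95.4 CPM, respectively. The genotypes overlapped in both states, and the pairs took both signs. With the block, the log2 difference was -0.09 ± 0.14 (SE) in unstimulated and -0.03 ± 0.17 (SE) in LPS-treated cells (edgeR adjusted p = 0.695 and 0.93), and its sign changed with the length offset in both states. With scaling to library size only, the unstimulated difference was -0.48 (log2, edgeR adjusted p = 0.0384 with the block).

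Rasgrp2 (ENSMUSG00000032946, chr19:6449370-6465246, plus strand), the calcium-responsive exchange factor for RAP1 known from platelets and lymphocytes, was close to the limit of detection. It gathered between 0 and 139 reads per library. Unstimulated libraries held 2.00, 1.73 and 1.07 CPM in CD18fl/fl and 1.07, 4.63 and 2.14 CPM in CD18ΔCD11c BMDCs, and LPS-treated libraries held 0.289, 0.372 and 0.788 CPM and 0.0, 0.494 and 0.938 CPM. The genotypes overlapped in both states. Differences with the block were 0.6 ± 0.59 and -0.6 ± 1.25 (log2, SE), neither of which was past the threshold (edgeR adjusted p = 0.506 and 0.797).

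**Figure D2:**
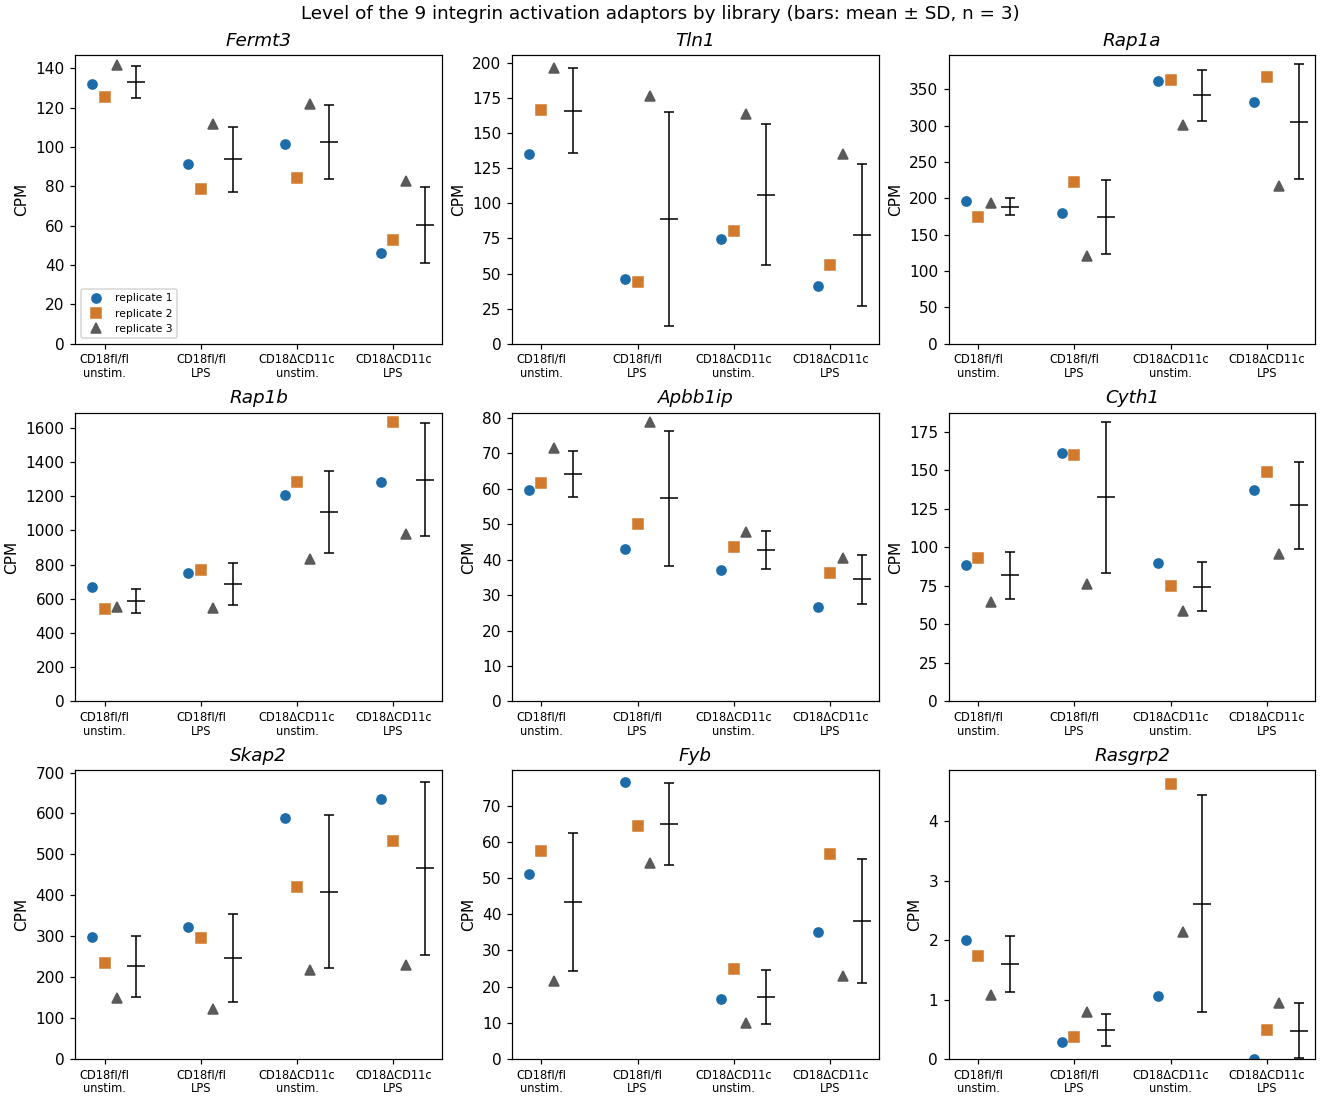
CPM of each adaptor in the 12 libraries. Symbols mark the replicate number, and the bar beside each group gives the mean ± SD (n = 3). Every vertical axis starts at 0 and has its own range. Rap1b reaches from 542 to 1634 CPM, Rasgrp2 stays below 5 CPM, and replicate 3 is the highest library of each group for Tln1 and the lowest for Skap2.

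Fewer of the adaptors passed the test between unstimulated and LPS-treated BMDCs. In CD18ΔCD11c BMDCs, Cyth1 and Fyb were higher and Fermt3 was lower after LPS with the block, and in CD18fl/fl BMDCs 0 of 9 passed. The 3 of 9 called in CD18ΔCD11c BMDCs stand against 20.2% of 12687 genes (10.2% higher, 9.93% lower), and the 0 of 9 in CD18fl/fl BMDCs against 12.8% of 12744 genes (6.33% higher, 6.43% lower). Without the block, 0 of 9 passed in either genotype, against 3.99% of genes in CD18ΔCD11c (2.23% higher, 1.76% lower) and 3.89% in CD18fl/fl BMDCs (2.06% higher, 1.83% lower). In CD18fl/fl BMDCs, 1 member had an unadjusted edgeR p under 0.05 without the block (Rasgrp2) and 4 had one with it (Fermt3, Tln1, Cyth1 and Fyb), against 3034 and 4144 of all genes. DESeq2 called 0 members without the block, against 12.8% of 14027 genes, and 1 (Tln1, lower) with it, against 22.7% of 13789 genes. In CD18ΔCD11c BMDCs, 3 members had an unadjusted p under 0.05 without the block, against 2685 of all genes. DESeq2 called 0 members without the block, against 10.7% of 14251 genes, and 5 with it (Cyth1 and Fyb higher, Fermt3, Tln1 and Rasgrp2 lower), against 24.2% of 13978 genes. Unstimulated and LPS-treated libraries did not overlap for Fermt3 and Rasgrp2, both lower after LPS, in CD18fl/fl BMDCs, against 29.5% of all genes (13.6% higher, 15.9% lower). In CD18ΔCD11c BMDCs they did not overlap for these same genes and for Cyth1, which was higher, against 28.1% of all genes (14.8% higher, 13.4% lower). The comparisons of the genotypes share their libraries with those of LPS, so they are not independent of each other.

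Cyth1 was 1.65-fold higher after LPS in CD18ΔCD11c BMDCs with the block (log2 0.73 ± 0.17 SE, edgeR adjusted p = 0.029), and the unstimulated and LPS-treated libraries did not overlap. In CD18fl/fl BMDCs its log2 difference was 0.64 ± 0.23 (SE, edgeR adjusted p = 0.118), with the pairs at 0.87, 0.79 and 0.24. Fyb was 2.16-fold higher after LPS in CD18ΔCD11c BMDCs (log2 1.11 ± 0.18 SE, edgeR adjusted p = 0.00786), with 1.09, 1.19 and 1.2 in the 3 pairs. In CD18fl/fl BMDCs, the pairs gave 0.58, 0.17 and 1.32 for Fyb (edgeR adjusted p = 0.152). Fermt3 was 1.79-fold lower after LPS in CD18ΔCD11c BMDCs (log2 -0.84 ± 0.2 SE, edgeR adjusted p = 0.0269) and at -0.52 ± 0.21 (log2, SE) in CD18fl/fl BMDCs, where the edgeR adjusted p was 0.152. Unstimulated and LPS-treated libraries were separate for Fermt3 in both genotypes. The calls for Cyth1 and Fermt3 were lost without replicate 1 (edgeR adjusted p = 0.131 and 0.202) or 2 (0.225 and 0.106), and that for Fyb without replicate 1 (0.0562). The summed macrophage markers also differed with LPS, going from between 1414 and 2122 CPM to between 437 and 779 CPM in CD18ΔCD11c libraries and from between 1386 and 1512 CPM to between 801 and 1029 CPM in CD18fl/fl libraries, and their part in these differences was not tested.

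The LPS difference of Tln1 varied between replicates. In CD18fl/fl BMDCs, the log2 differences of the pairs were -1.54, -1.93 and -0.15, so that replicates 1 and 2 were far lower after LPS and replicate 3 was close to its unstimulated level. The edgeR adjusted p was 0.0899 with all replicates and 3.16e-15 without replicate 3, where the log2 difference was -1.74 and 49.3% of all genes were called. With the block, fits without replicate 3 leave 1 residual degree of freedom, so their p-values rest mostly on the spread pooled over all genes. In CD18ΔCD11c BMDCs, the pairs gave -0.86, -0.52 and -0.28 (edgeR adjusted p = 0.0732 with all replicates and 0.00429 without replicate 3). Rasgrp2 was lower after LPS in 3 of 3 pairs of each genotype without overlap of the groups. It did not pass with the block (edgeR adjusted p = 0.174 in CD18fl/fl and 0.098 in CD18ΔCD11c BMDCs). Without replicate 3 it passed in both (edgeR adjusted p = 0.0193 and 0.0152), DESeq2 with the block called it in CD18ΔCD11c BMDCs (adjusted p = 0.00895), and LPS-treated libraries held at most 31 reads. For Rap1a, Rap1b, Skap2 and Apbb1ip, LPS differences with the block lay between -0.37 and 0.22 on the log2 scale in both genotypes, and the groups overlapped. For Rap1b and Skap2 the sign turned negative in both genotypes when libraries were scaled to their size only.

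**Figure D3:**
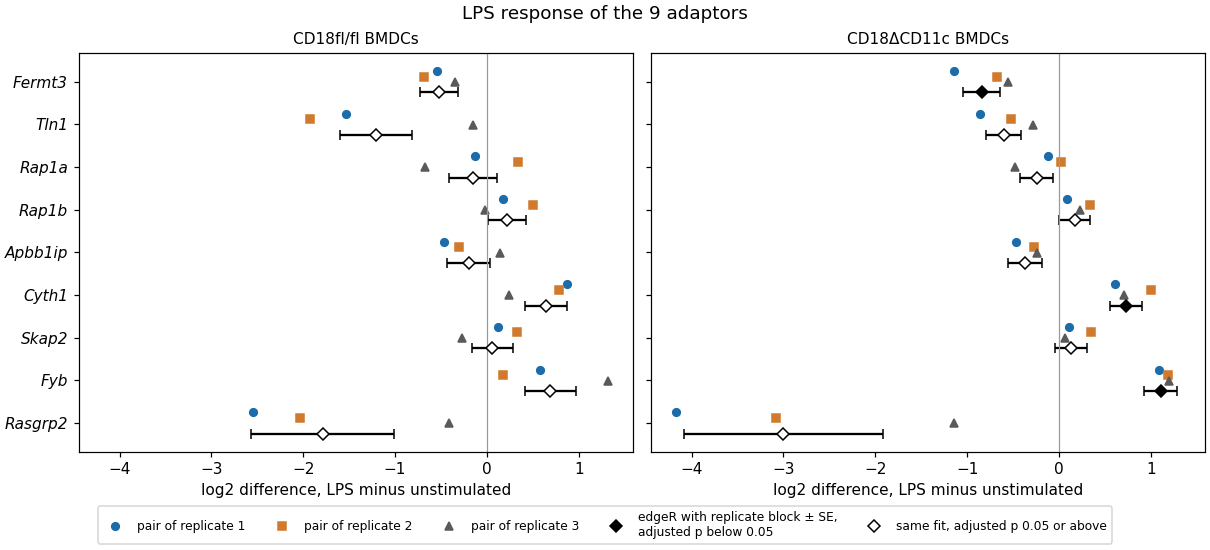
Log2 difference between LPS-treated and unstimulated BMDCs for each adaptor in CD18fl/fl (left) and CD18ΔCD11c (right) cells, with symbols as in the plot of the genotype differences. Cyth1 and Fyb lie to the right of 0 and Fermt3, Tln1 and Rasgrp2 to the left in all 3 pairs of both genotypes. Filled diamonds (Fermt3, Cyth1 and Fyb) occur in the CD18ΔCD11c panel only, and the values of Rasgrp2 depend on the prior count of 2 reads added before taking logarithms.

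Whether the LPS response of an adaptor differed between the genotypes was tested by the interaction term over all 12 libraries. With and without the block, 0 of 9 adaptors and 0% of 13752 genes passed edgeR's test. An unadjusted p under 0.05 was seen for 0 of 9 members in both fits and for 97 genes without and 272 genes with the block, and DESeq2 called 1 gene. The interaction estimates with the block were -0.25 ± 0.25 for Fermt3, 0.67 ± 0.4 for Tln1 and 0.45 ± 0.33 for Fyb (log2, SE). The calls for Fermt3, Cyth1 and Fyb in CD18ΔCD11c BMDCs alone therefore do not show a response that differs from that of CD18fl/fl BMDCs.

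To compare the adaptors with each other, CPM were divided by exon length. In unstimulated CD18fl/fl BMDCs, the mean level per kb of exon was highest for Rap1b (204 ± 23.9 CPM per kb, SD, n = 3), followed by Rap1a (72.1 ± 4.48), Skap2 (67.0 ± 22.1) and Fermt3 (43.2 ± 2.63). Apbb1ip (23.2 ± 2.33), Cyth1 (22.1 ± 4.11), Tln1 (19.6 ± 3.6) and Fyb (14.3 ± 6.29) came next, and Rasgrp2 was last (0.378 ± 0.113). Neighbors in this order overlapped in their library ranges except for Rap1b and Rap1a, Fermt3 and Apbb1ip, and Fyb and Rasgrp2. Rap1b was first and Rasgrp2 last in all 4 groups. In LPS-treated CD18ΔCD11c BMDCs, Rap1b reached 449.8 ± 114 CPM per kb, Skap2 138 ± 62.7 and Rap1a 117 ± 30.2, while Tln1 stood at 9.14 ± 5.96. Cyth1 ranked below Fermt3 in both unstimulated groups and above it in both LPS-treated groups, where the ranges of Cyth1 and Fermt3 overlapped.

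The ratio of Rap1b to Rap1a within a library does not depend on how libraries are scaled. Per length, it was 3.07, 2.80 and 2.59 in unstimulated CD18fl/fl and 3.02, 3.20 and 2.50 in unstimulated CD18ΔCD11c libraries. After LPS, it was 3.77, 3.13 and 4.07 in CD18fl/fl and 3.49, 4.03 and 4.08 in CD18ΔCD11c libraries. The genotypes overlapped in each state, with log2 differences of 0.04 ± 0.13 and 0.08 ± 0.13 (SE; exact permutation test, two-sided, p = 0.8 and 0.6). LPS-treated libraries lay above unstimulated ones without overlap in both genotypes, with log2 differences of 0.37 ± 0.13 in CD18fl/fl and 0.41 ± 0.13 in CD18ΔCD11c BMDCs (SE; exact permutation test, two-sided, p = 0.1 each). With 3 libraries against 3, 0.1 is the smallest p this test can give, so it cannot reach the threshold. Adjusted over these 4 comparisons (Benjamini-Hochberg), the p-values of the exact test were 0.8, 0.8, 0.2 and 0.2.

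**Figure D4:**
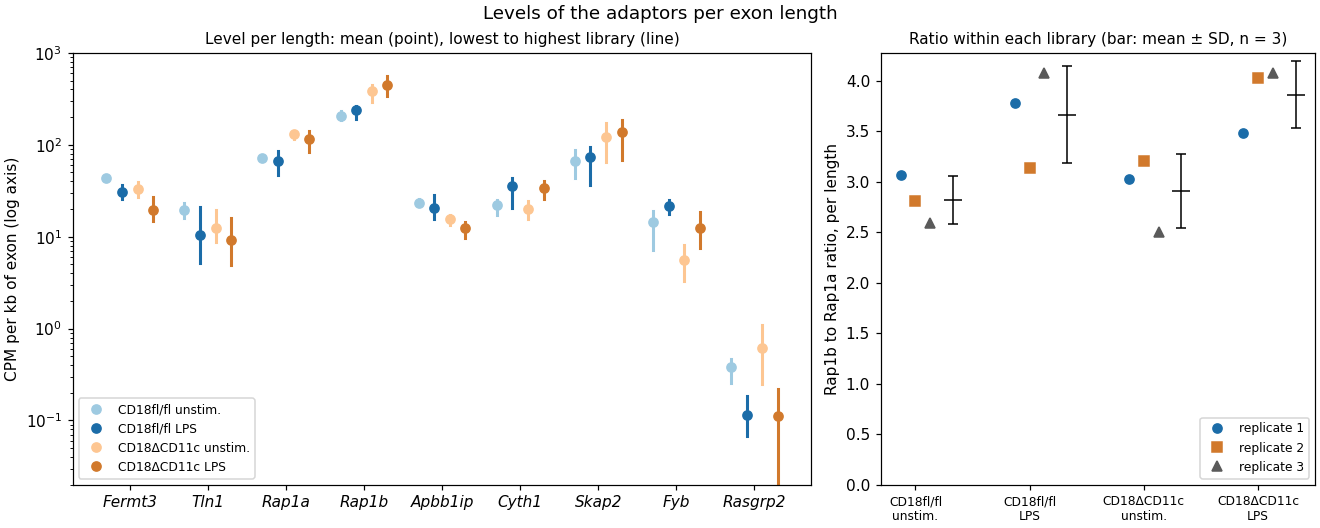
Left, level of each adaptor in CPM per kb of exon on a log axis, with the mean of each group as a point and a line from its lowest to its highest library (for Rasgrp2 in LPS-treated CD18ΔCD11c BMDCs the lowest library is at 0 and the line runs off the axis). Right, ratio of Rap1b to Rap1a per length in each library, with the mean ± SD (n = 3) beside it. Rap1b is the highest member in every group, and the LPS-treated groups (3.13 to 4.08) lie above the unstimulated ones (2.50 to 3.20) in the ratio, apart from 1 LPS-treated CD18fl/fl library at 3.13.

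Reads within introns come from unspliced RNA or from genomic DNA and were read as a second measure of the members called between the genotypes. In unstimulated BMDCs, each library held between 27 and 77 intron reads for Rap1a, 70 to 205 for Rap1b and 41 to 108 for Skap2. Scaled to the intron reads of each library (CPM of intron reads), Rap1a was at 105, 111 and 86.0 in CD18fl/fl and at 82.9, 37.1 and 123 in CD18ΔCD11c libraries. Unlike the gene reads, these overlapped between the genotypes, and CD18ΔCD11c was higher in 1 of 3 pairs for Rap1a and for Rap1b and in 2 of 3 for Skap2. After LPS, the intron reads of Rap1a were higher in CD18ΔCD11c in 3 of 3 pairs (27.2, 14.7 and 68.6 against 35.7, 22.6 and 75.0 on the same scale), and the groups overlapped. Rap1b and Skap2 were higher in 2 of 3 pairs each after LPS. For Tln1, called lower in unstimulated CD18ΔCD11c BMDCs, intron reads there were higher in 3 of 3 pairs. They stood at 95.8, 64.7 and 152.5 in CD18fl/fl and at 134.7, 166.5 and 317.1 in CD18ΔCD11c libraries. Those of Fyb and Apbb1ip were higher in 1 of 3 unstimulated pairs. After LPS, those of Apbb1ip and Fermt3 were higher in 1 of 3 pairs. Intron reads made up 0.669%, 0.348% and 0.552% of all reads on Rap1a, Rap1b and Skap2, compared with 3.04% on Fermt3 and 5.68% on Fyb, and no test was run on these low counts.

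Over all 12 libraries, the genes whose log2 CPM followed each adaptor most closely were named as a description. The libraries share groups and replicate numbers, so a high r is common among 13752 genes. Rap1a was closest to Reep5 (Pearson r = 0.988) and Smim15 (0.975), Rap1b to Btf3 (0.979) and Gm14305 (0.978), and Skap2 to Mdp1 (0.985) and Raly (0.983). Tln1 was closest to Prrc2a (0.988) and Hcfc1 (0.985), Fermt3 to Agfg2 (0.973) and Oplah (0.966), and Apbb1ip to Zfp516 (0.962) and Zmym6 (0.958). Cyth1 was closest to Lactb (0.989) and Ttc9c (0.986), Fyb to Slc39a4 (0.971) and Mitf (0.958), and Rasgrp2 to Fgd4 (0.941) and Abcg2 (0.934). None of the 9 was among the 2 nearest genes of another.

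Other genes of the RAP1 pathway are given with the block, since 0 of them passed between the genotypes without it, and their counts stand against the shares of all genes given above. With LPS and no block, Cyth4, Rassf5, Ptpn22 and Parvg passed as lower in CD18fl/fl BMDCs, against 3.89% of all genes. In CD18ΔCD11c BMDCs, Rasa3, Rassf5, Flna, Ptpn22 and Parvg passed as lower and Krit1 and Mob1b as higher, against 3.99%. A list of 8 genes held RAP1 GTPase-activating proteins, which switch RAP1 off, and related genes. Of these, Sipa1, Sipa1l2 and Rasa3 were lower and 0 higher in unstimulated CD18ΔCD11c BMDCs. Sipa1, which encodes SPA-1, a RAP1 GAP of hematopoietic cells, fell from 30.8 ± 4.94 to 17.6 ± 6.76 CPM (SD, n = 3; log2 -0.81 ± 0.19 SE, edgeR adjusted p = 0.0243). Rasa3 stood at 38.4 ± 12.5 and 22.1 ± 4.6 CPM (SD; edgeR adjusted p = 0.0386), and after LPS at 14.3 ± 1.18 and 7.25 ± 2.68 CPM (SD; edgeR adjusted p = 0.0458), where it was the only one of 7 called. With the length offset, Sipa1 alone remained lower in unstimulated cells, Sipa1l1 was called higher, and 0 were called after LPS. With LPS, Rasa3 and Rasal3 were lower in both genotypes. Rasal3, whose effect on RAP1 was not examined, went from 23.0 ± 11.7 to 3.21 ± 2.99 CPM in CD18fl/fl and from 23.7 ± 12.2 to 3.54 ± 3.31 CPM in CD18ΔCD11c BMDCs (SD; edgeR adjusted p = 0.00599 and 0.00207).

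Of the 6 other RAP1 exchange factors tested, 0 passed between the genotypes, and Rapgef2 was higher with LPS in CD18ΔCD11c BMDCs (3.18 ± 1.37 to 11.5 ± 5.34 CPM, SD; edgeR adjusted p = 0.0098). Among the paralogs of the 9 adaptors, 0 of 13 passed in unstimulated and 0 of 12 in LPS-treated cells between the genotypes. Cyth4, the cytohesin of leukocytes, was lower with LPS in CD18fl/fl (87.1 ± 14.9 to 21.1 ± 5.35 CPM, SD; edgeR adjusted p = 0.0126) and in CD18ΔCD11c BMDCs (90.9 ± 21.6 to 30.8 ± 20.1 CPM, SD; edgeR adjusted p = 0.0096), the opposite direction to Cyth1. Rasgrp4, a relative of Rasgrp2 known from mast cells, was also lower with LPS in both (log2 -3.18 ± 0.33 and -2.42 ± 0.55 SE, edgeR adjusted p = 0.00598 and 0.0242). Its unstimulated libraries spread from 11.6 to 146 CPM, and the mast cell list from 15.1 to 165 CPM, and the part of the latter was not tested.

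Among 12 RAP1 effectors and adaptor partners, Mob1b was higher in CD18ΔCD11c BMDCs in both states, at 14.6 ± 4.57 and 22.7 ± 1.14 CPM unstimulated and at 33.1 ± 6.47 and 55.7 ± 12.1 CPM after LPS (SD; edgeR adjusted p = 0.047 and 0.0277). MOB1 proteins are partners of the kinase MST1, which acts downstream of RAP1 with the effector RAPL. Rassf5, which encodes RAPL, was lower with LPS in CD18fl/fl (46.1 ± 8.7 to 8.79 ± 2.46 CPM, SD; edgeR adjusted p = 0.00746) and in CD18ΔCD11c BMDCs (35.7 ± 9.69 to 6.97 ± 0.497 CPM, SD; edgeR adjusted p = 0.00208). Besides Mob1b, 2 members of this list were called between the genotypes in unstimulated cells (both lower, neither called with the length offset, which called Adap1 lower instead) and 0 in LPS-treated cells.

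Of 10 integrin inactivators tested in unstimulated and 8 in LPS-treated cells, 1 was higher and 0 lower in CD18ΔCD11c BMDCs in each state (2 higher in unstimulated cells with the length offset). With LPS, Flna, whose product filamin competes with talin for integrin tails, was lower in CD18fl/fl (346 ± 66.6 to 113 ± 40.6 CPM, SD; edgeR adjusted p = 0.0331) and in CD18ΔCD11c BMDCs (257 ± 14.8 to 120.2 ± 17.1 CPM, SD; edgeR adjusted p = 0.00784). Dok1, another protein that competes for the tail, was higher (106 ± 35.8 to 377 ± 214 and 109.8 ± 46.3 to 341 ± 157 CPM, SD; edgeR adjusted p = 0.0203 and 0.00258). The list of tail, talin and kindlin partners held 1 higher and 3 lower of 11 tested genes in unstimulated and 1 higher and 0 lower of 11 in LPS-treated CD18ΔCD11c BMDCs, and with the length offset only 1 of the 3 lower genes, Parvb, was called. Ilk, the integrin-linked kinase that binds kindlin, was the higher one in both states (log2 0.84 ± 0.13 and 0.6 ± 0.15 SE, edgeR adjusted p = 0.00654 and 0.0478), and Parvb, a parvin that binds ILK, was lower in unstimulated cells (12.6 ± 5.79 to 5.7 ± 4.46 CPM, SD; edgeR adjusted p = 0.0217). Among the β2 subunits, Itgam and Itgax were lower with LPS in both genotypes, with log2 changes from -2.94 to -1.66 (edgeR adjusted p from 0.00179 to 0.0433). Neither passed without the block (edgeR adjusted p from 0.0792 to 0.464). In the first unstimulated CD18fl/fl library, 5417 of 18303 Itgam reads mapped to a single position. LPS-treated CD18fl/fl libraries held 37.82, 30.75 and 284.5 CPM of Itgax.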

How the data were processed

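Poly(A) RNA libraries of the 12 samples were sequenced as single-end reads and mapped and counted by the authors in CLC Genomics Workbench with default settings. They deposited 1 table per library with read counts per gene. The deposited counts are whole numbers, not normalized, and total gene reads were used here. The coordinates in the tables are those of GRCm39, which the study's methods name, whereas the submitters' processing notes name GRCm38. Columns of other samples numbered 0.

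Counts were tested with edgeR 4.0.16 in R 4.3.3 (TMM, filterByExpr with a minimum count of 10, quasi-likelihood test, Benjamini-Hochberg threshold 0.05) on the 6 libraries of each comparison and, for the interaction, on all 12. DESeq2 1.42.0 was an alternative. The main test was set without a block, and the block for replicate number was an alternative. Deviations from the group means correlated above 0.1 for each pair of same-numbered libraries (r from 0.265 to 0.716). The numbers, which come from the labels, were therefore taken to pair the libraries, and values with this block are given. The labels do not state such a pairing. As given above, r cannot show it among the replicates that lie close together. No 2 libraries held the same counts within sampling noise (lowest chi-squared per degree of freedom of 66 pairs, 46.6). The length offset used a lowess fit with span 0.3. Log2 CPM used a prior count of 2. The scripts were tested on simulated data.

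The members and gene lists were chosen with earlier results of these data known. Named genes were the 9 members, Itgb2, at most 4 genes per pathway list (those called in most comparisons, ties by p in CD18fl/fl BMDCs) and the 2 genes most correlated with each member. Itgam and Itgax were named as the called β2 subunits. List genes called with LPS without the block were named as well. Other alternatives were RLE size factors, library size scaling, unique reads, no filter and leaving out libraries. Their fits with the block, apart from library size scaling and DESeq2, were chosen after seeing the data.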

Additional observations from a re-analysis of the deposited data

How the results depend on the processing

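Calls depended on the block for replicate number and on which replicates entered. With all 6 libraries of a comparison and no block, edgeR called 0 of the 9 adaptors in each comparison. With the block, 6 passed between the genotypes in unstimulated BMDCs, 5 in LPS-treated BMDCs, and 3 with LPS in CD18ΔCD11c BMDCs. The share of all genes called moved with these settings, among the fits with the block from 3.48% (block without replicate 2) to 35.6% (library size scaling with the block) in unstimulated, from 0.0234% (block without replicate 1) to 21.2% (library size scaling with the block) in LPS-treated BMDCs, and up to 49.3% and 31.5% for LPS in CD18fl/fl and CD18ΔCD11c BMDCs (block without replicate 3). Brackets below give the share of all genes called under the same setting. Fits with the block and a replicate number left out have 1 residual degree of freedom per gene. In unstimulated BMDCs with the block, the count was 5 with an added length offset (12.8%) and 8 with library size scaling (35.6%). It was 6 each with DESeq2 (26.4%), unique reads (20.7%), RLE size factors (20.7%) or no filter on low counts (18.2%). Leaving out replicate 1, 2 or 3 gave 4 (7.71%), 1 (3.48%) and 6 (26.7%). Without the block, it was 2 with DESeq2 (6.03%) and 5 with replicates 1 and 2 alone (10.6%). In LPS-treated BMDCs with the block, the count was 3 with the length offset (7.39%) and 4 with RLE (9.85%). It was 6 each with library size scaling (21.2%), DESeq2 (17.1%), unique reads (11.2%) or no filter (11%). Leaving out replicate 2 or 3 gave 1 (1.77%) and 4 (11.3%). With replicates 1 and 2 alone and no block, it was 2 (4.22%). For LPS in CD18fl/fl BMDCs, the count was 1 each with DESeq2 (22.7%) or no filter (12.4%), both with the block. It was 4 with replicates 1 and 2 alone (no block, 47.5%) or with the block without replicate 3 (49.3%). With single libraries left out, it was 0 to 2 (2 without the CD18fl/fl LPS library of replicate 3, 24.7%). For LPS in CD18ΔCD11c BMDCs with the block, the count was 3 each with the length offset (21.8%), library size scaling (21.7%), unique reads (20.8%) or RLE (20.3%). It was 5 with DESeq2 (24.2%) and 4 with no filter (16.1%). Leaving out replicate 2 or 3 gave 1 (10.5%) and 5 (31.5%). Without the block, it was 1 with replicates 1 and 2 alone (15.9%) and 0 to 1 with single libraries left out (1 without the CD18ΔCD11c LPS library of replicate 3, 7.8%).

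The sign of some log2 differences that edgeR did not call with the block turned. Between the genotypes in unstimulated BMDCs, Cyth1 was at 0.04 with the length offset and from -0.25 to 0.07 with single libraries left out. In LPS-treated BMDCs, Tln1 was at 0.08 with the length offset and with replicates 1 and 2 alone, 0.06 with the block without replicate 3, and from -0.93 to 0.76 with single libraries left out. Cyth1 was at 0.12 with the length offset, 0.0035 with DESeq2 and 0.01 with RLE, both with the block, 0.09 and 0.05 with the block without replicate 1 or 2, and from -0.39 to 0.07 with single libraries left out. Rasgrp2 was at 0.01 with RLE and with DESeq2, 0.1 with unique reads, 0.3 with the block without replicate 1, and from -1.03 to 0.54 with single libraries left out. With LPS in CD18fl/fl BMDCs, Rap1a was at 0.11 with replicates 1 and 2 alone and with the block without replicate 3, and from -0.31 to 0.1 with single libraries left out. Rap1b was at -0.1 with library size scaling, with and without the block, Apbb1ip from -0.46 to 0.01 with single libraries left out, and Skap2 at -0.24 and, with the block, -0.26 with library size scaling, -0.07 with the block without replicate 2, and from -0.12 to 0.44 with single libraries left out. In CD18ΔCD11c BMDCs, library size scaling gave -0.04 for Rap1b and -0.09 for Skap2, with and without the block, and Skap2 ranged from -0.17 to 0.46 with single libraries left out. The interaction estimate of Tln1 ranged from -0.23 to 1.34, and the log2 genotype difference of the Rap1b to Rap1a ratio from -0.03 to 0.15 in unstimulated and from -0.03 to 0.16 in LPS-treated BMDCs, with single libraries left out. The cause of these changes was not tested. Reads limit only Rasgrp2, with 514 in all 12 libraries.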
